A study of Homo sapiens with 4 samples.

Results

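Axon guidance genes of 4 ligand and receptor systems were followed in endothelial cells with and without GFI1. GFI1 is a transcriptional repressor that acts during the endothelial-to-haematopoietic transition. The set holds the semaphorins of classes 3 to 7, the class A, B, C and D plexins, the Slits, the Robos, 4 netrins, the UNC5 receptors, DCC and neogenin. Members were taken by gene symbol among protein-coding genes, which gave 46 of the 19912 genes in the count table, and all 46 were present in it. The cells were GATA2/eGFP+ endothelial cells differentiated from H1, an established human embryonic stem cell line. A line with GFI1 left intact (WT) and a line lacking GFI1 (GFI1-KO) each gave 2 RNA sequencing libraries. Both lines carried the GATA2/eGFP reporter used for the sort. The number of knockout clones, the days of culture and whether replicates were separate differentiations were not stated in the labels. The p-values therefore measure only the spread between these libraries, which may be technical.

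Semaphorins, Slits and netrins are extracellular or membrane cues that steer growing axons, and endothelial cells use the same cues in vessel sprouting and branching. Semaphorins act through plexins, often with neuropilins as co-receptors. Slits act through Robo receptors, whose cytoplasmic tails recruit Slit-Robo GTPase-activating proteins. Netrins bind DCC, neogenin and the UNC5 receptors, and neogenin also binds repulsive guidance molecules. In vessels, plexin D1 and ROBO4 are known as endothelial receptors, as is UNC5B.

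The libraries held 2239214 and 2417410 counts in WT against 146584 and 2332621 counts in GFI1-KO replicates 1 and 2. GFI1-KO replicate 1 was thus far shallower, and levels are given as CPM, counts scaled to the TMM-adjusted library total of the tested genes. On that scale 3 counts stand for 19.9 CPM in this library, against 1.26 to 1.34 CPM in the other libraries. GFI1 itself was at 58.5 and 58.3 CPM in WT and at 19.9 and 19.6 CPM in GFI1-KO, on 3 counts in replicate 1 (edgeR log2 fold change -1.57, SE 0.31, adjusted p = 0.0215). Both libraries labelled GFI1-KO were below both WT libraries. GATA2, whose reporter defined the sort, was at 293 and 252 CPM in WT against 139 and 124 CPM in GFI1-KO and fell (log2 fold change -1.09, SE 0.24, adjusted p = 0.0376). The GFI1 call was lost with DESeq2 (adjusted p = 0.443), without WT replicate 1 (0.137) or 2 (0.096) and without GFI1-KO replicate 2 (0.271). Leaving out a library leaves 1 library in its group, so the spread then comes from the other group alone and the lone library is assumed to vary like it. The endothelial genes CDH5, PECAM1, KDR, TEK and TIE1 were all present, and the 8 endothelial markers summed to 6118 and 6318 CPM in WT against 7446 and 8788 CPM in GFI1-KO. KDR made up 2995 and 3285 CPM of these sums in WT and 3703 and 4970 CPM in GFI1-KO. PECAM1 went the other way, at 443 and 388 CPM in WT against 344 and 324 CPM in GFI1-KO. The 8 mesenchymal and mural markers summed to 3603 and 3279 CPM in WT against 2928 and 3272 CPM in GFI1-KO. The 8 haematopoietic markers summed to 34.8 and 53.3 CPM in WT against 0 and 11.6 CPM in GFI1-KO, with no count of PTPRC, HBE1 or HBG1 in any library. The 10 neural markers summed to 351 and 389 CPM in WT against 437 and 612 CPM in GFI1-KO. NES, an intermediate filament gene that dividing endothelium also expresses, made up 339, 372, 417 and 604 CPM of these sums, while SOX1 and DCX were not counted in any library. The 5 pluripotency markers summed to 724 and 757 CPM in WT against 603 and 560 CPM in GFI1-KO, mostly LIN28A, with NANOG not counted. The 5 epithelial markers summed to 652 and 447 CPM in WT against 225 and 540 CPM in GFI1-KO. Of these marker lists 0 genes passed the test, and the part of endothelial, haematopoietic or other cell content in the results that follow was not tested. In bulk libraries fewer cells of a type and less RNA per cell cannot be told apart.

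SLIT2 and NEO1 rose in GFI1-KO cells, and the other guidance genes tested did not pass. SLIT2 encodes a secreted ligand of the Robo receptors, and NEO1 encodes neogenin, a receptor for netrins and repulsive guidance molecules. Among the 31 members with enough counts to test, 2 rose (6.45%), 0 fell and 29 did not pass (edgeR quasi-likelihood test, Benjamini-Hochberg adjusted p under 0.05 over 11380 genes). Over all tested genes, 0.773% rose and 0.185% fell by the same rule, or 0.958% in either direction. For the 0 members that fell, the count at an unadjusted p under 0.05 was 1, PLXNC1, and it was 0 with DESeq2 and limma-voom at the adjusted threshold. The median log2 fold change of the 31 tested members was 0.20, against -0.02 over all tested genes, and 20 were above 0 and 11 below, where 47.5% of all tested genes were above 0. That median was -0.06 without GFI1-KO replicate 2. At an unadjusted p under 0.05, 6 members were higher and 1 lower, against 5.81% and 3.54% of all tested genes. A member that passed the filter on low counts through 1 genotype had to differ, so these counts and medians are a description.

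Both GFI1-KO libraries lay above both WT libraries for 9 of the 31 tested members, a pattern met by 18.6% of all tested genes. The 9 were SLIT2, NEO1, ROBO1, SEMA3G, SEMA6C, SEMA6D, SEMA4C, PLXNA1 and PLXND1. Both GFI1-KO libraries lay below both WT libraries for 3 members, namely PLXNA4, SEMA4D and SLIT3, against 22.7% of all tested genes. For these lower members, the exact 95% counting interval of GFI1-KO replicate 1 covered both WT values. It reached 24.4 CPM for PLXNA4 (0 counts), 36.9 CPM for SEMA4D (1 count) and 47.9 CPM for SLIT3 (2 counts). Among the higher members, that interval covered a WT value for SLIT2, SEMA6C, SEMA6D, SEMA4C and PLXND1. It lay above both WT values for NEO1, ROBO1, SEMA3G and PLXNA1.

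**Figure D1:**
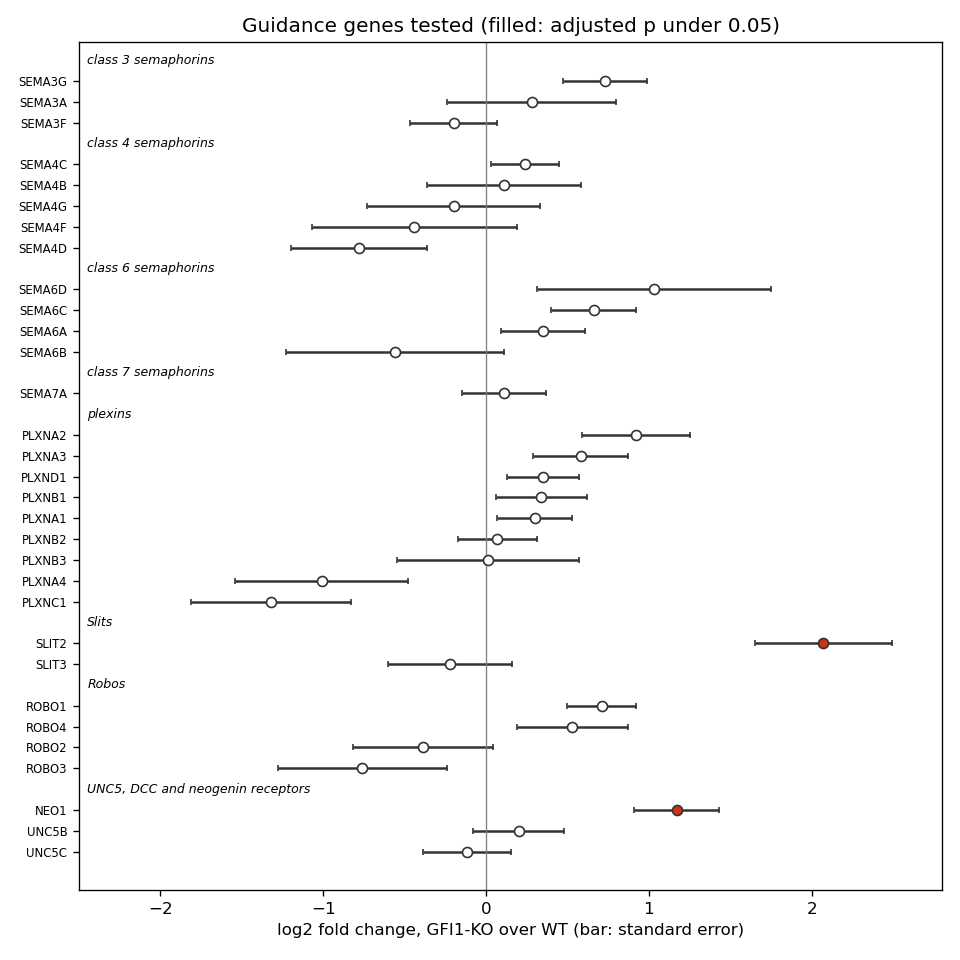
Log2 fold change of GFI1-KO over WT (x axis) for the 31 guidance genes tested, grouped by family, with bars for the standard error and filled points for an adjusted p under 0.05. SLIT2 at 2.07 and NEO1 at 1.17 are the filled points; PLXNC1 at -1.32 is the leftmost.

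In the Slit and Robo system, SLIT2 rose and ROBO1 was higher in both GFI1-KO libraries without passing the test. SLIT2 (ENSG00000145147; chr4:20253260-20620561, plus strand, GRCh38) had 16 and 38 counts in WT against 3 and 127 in GFI1-KO, which is 7.14 and 15.9 CPM against 19.9 and 56.5 CPM. The groups did not overlap, but the exact 95% counting interval of GFI1-KO replicate 1, 4.10 to 58.1 CPM, covered the values of the other 3 libraries. Mean levels (SD, n = 2 each) were 11.5 ± 6.22 against 38.2 ± 25.9 CPM, and edgeR put the log2 fold change at 2.07 with an SE of 0.42 and an adjusted p of 0.0247. The ratio of pooled counts was 4.64 (exact 95% interval 3.35 to 6.50), an interval that covers counting error only. The rise leaned on GFI1-KO replicate 2, since without it the log2 fold change was 0.78 (adjusted p = 0.767); without WT replicate 1 it was 1.57 (adjusted p = 0.179), and with DESeq2 the adjusted p was 0.586.

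ROBO1, the Robo receptor gene with the highest level per length in these cells, was at 327 and 361 CPM in WT against 497 and 608 CPM in GFI1-KO. The counts behind these were 732, 860, 75 and 1366, and the counting interval of GFI1-KO replicate 1, 391 to 623 CPM, began above the upper bounds of 351 and 386 CPM in WT. The difference did not pass over all genes (log2 fold change 0.71, SE 0.21, adjusted p = 0.162). With GFI1-KO replicate 2 alone against WT, where the 2 WT libraries give all of the spread, ROBO1 was under the threshold (0.82, adjusted p = 0.00819), in a fit in which 2.29% of all tested genes rose and 0.896% fell. With the replicate number as a block, a fit given in the closing section, 2.09% of all tested genes rose and 0.782% fell.

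None of the other Slits and Robos tested passed, and ROBO4 alone of them had a log2 fold change above 0. SLIT3, a further Robo ligand, was at 21.0 and 23.5 CPM in WT against 13.2 and 20 CPM in GFI1-KO (log2 fold change -0.22, SE 0.38, adjusted p = 0.952). SLIT1 had 6, 10, 1 and 2 counts and was not tested. ROBO4, the endothelial Robo, was at 23.7 and 23.5 CPM in WT against 19.9 and 36.9 CPM in GFI1-KO, groups that overlapped (log2 fold change 0.53, SE 0.34, adjusted p = 0.748). ROBO2, which guides axons in the brain and retina, and ROBO3, a Robo of commissural axons, had log2 fold changes of -0.39 and -0.76.

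Neighbouring Robo genes thus had fold changes of opposite sign. On chromosome 11, ROBO3 (124865386 to 124881470) ends 2.22 kb from ROBO4 (124883691 to 124898500), with log2 fold changes of -0.76 and 0.53, the latter -0.24 without GFI1-KO replicate 2. On chromosome 3, ROBO2 (75906695 to 77649964) and ROBO1 (78597240 to 79767815) lie 947 kb apart, with log2 fold changes of -0.39 and 0.71. None of these 4 passed, and the differences between neighbours were not tested. The exons of ROBO4 share 10.6% and 6.37% of their length with the antisense genes AP003501.1 and AP003501.2, whose reads cannot be told apart without a stranded count.

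**Figure D2:**
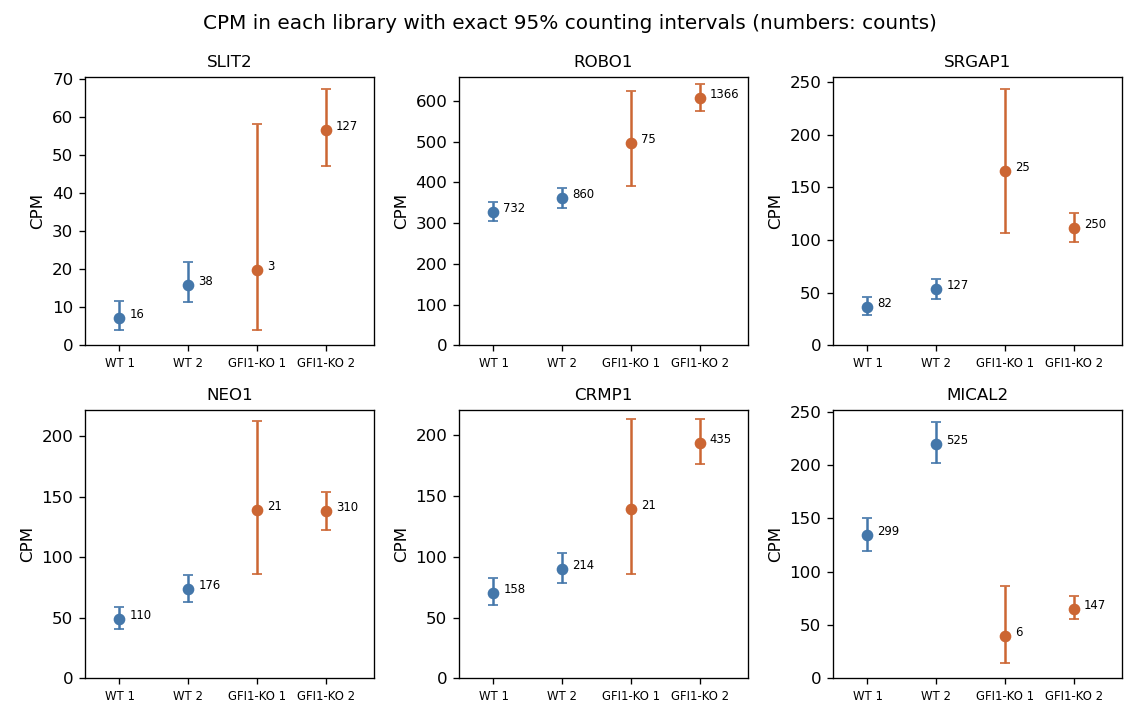
CPM (y axis) of SLIT2, ROBO1, SRGAP1, NEO1, CRMP1 and MICAL2 in each of the 4 libraries, with exact 95% counting intervals and the count beside each point. The wide intervals of GFI1-KO replicate 1 rest on 3 to 75 counts, and for SLIT2 that interval spans the WT values.

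The sequences before the RefSeq starts of SLIT2, NEO1 and ROBO1 are shown because these members had the smallest p-values. They come from RefSeq on build GRCh38.p14, are written 5′ to 3′ on the gene's strand, and stop where the window meets a GENCODE exon, which happened for NEO1. The SLIT2 window ends at 20251904, before the GENCODE start of the gene at 20253260, and does not adjoin it. The first ROBO1 window lies before the gene and the second within its span, before a start used by shorter transcripts, and neither meets an exon. Capitals mark the letters AATC or its reverse complement GATT, the core of the recognition sequence known for GFI1.
SLIT2, chr4:20251655-20251904, plus strand: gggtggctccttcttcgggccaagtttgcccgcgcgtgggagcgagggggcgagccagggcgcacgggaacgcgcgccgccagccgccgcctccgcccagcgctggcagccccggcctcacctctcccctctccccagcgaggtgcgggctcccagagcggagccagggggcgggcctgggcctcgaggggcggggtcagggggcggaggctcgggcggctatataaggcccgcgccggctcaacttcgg
NEO1, chr15:73051652-73051709, plus strand: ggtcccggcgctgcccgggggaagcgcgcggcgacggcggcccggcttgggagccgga
ROBO1, chr3:79767999-79768248, minus strand: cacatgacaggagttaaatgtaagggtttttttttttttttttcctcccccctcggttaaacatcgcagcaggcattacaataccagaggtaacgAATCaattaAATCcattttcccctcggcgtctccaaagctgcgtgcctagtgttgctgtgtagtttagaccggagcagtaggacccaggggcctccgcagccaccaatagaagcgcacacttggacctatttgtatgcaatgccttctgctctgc
ROBO1, chr3:79019460-79019709, minus strand: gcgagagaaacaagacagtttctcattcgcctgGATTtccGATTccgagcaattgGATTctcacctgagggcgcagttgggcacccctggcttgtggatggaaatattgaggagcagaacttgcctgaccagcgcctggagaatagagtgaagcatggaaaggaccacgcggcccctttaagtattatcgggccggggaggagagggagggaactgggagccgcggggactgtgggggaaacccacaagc

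The SLIT2 window of 250 bases held 0 such letters at a GC content of 77.2%, and the 2 ROBO1 windows held 2 and 3 at 48.0% and 56.8%. The full NEO1 window, of which 58 bases are printed, held 1. That match lies in the 192 bases left out, after the window meets a GENCODE exon. Of the 46 members, 39 had 65 promoters in the RefSeq table, and AATC on either strand was in 66.2% of them, against 64.8% of all 35116 promoters of the same length and 58.0% of those of tested genes. The longer AATCAC, which contains AATC, was in 6.15% of the members' promoters, 9.02% of all promoters and 7.07% of those of tested genes, on either strand. These are matches of letters only, and 0 of the 4 windows of SLIT2, NEO1 and ROBO1 held AATCAC.

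Of the netrin and repulsive guidance receptors, neogenin was the member that rose, while netrin transcripts were at or near 0. NEO1 (ENSG00000067141; chr15:73051710-73305206, plus strand, GRCh38) had 110 and 176 counts in WT against 21 and 310 in GFI1-KO. These are 49.1 and 73.9 CPM in WT against 139 and 138 CPM in GFI1-KO, so both GFI1-KO libraries were higher than both WT libraries. The exact 95% counting interval of GFI1-KO replicate 1, on 21 counts, was 86.1 to 213 CPM. The near equality of the GFI1-KO values, and their small SD, therefore understate the counting error. Mean levels (SD, n = 2 each) were 61.5 ± 17.5 against 139 ± 0.796 CPM, and edgeR put the log2 fold change at 1.17 with an SE of 0.26 and an adjusted p of 0.0471. The ratio of pooled counts was 2.23 (exact 95% interval 1.90 to 2.62). The log2 fold change was close to this without GFI1-KO replicate 1 (1.16, adjusted p = 0.000886) and without GFI1-KO replicate 2 (1.2, adjusted p = 0.0902), while without WT replicate 1 it was 0.91 (adjusted p = 0.762). The call was also lost with DESeq2 (adjusted p = 0.325).

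UNC5B, the netrin receptor of endothelial cells, was at 303 and 206 CPM in WT against 417 and 225 CPM in GFI1-KO. Only the shallow GFI1-KO library stood above WT replicate 1, so the groups overlapped (log2 fold change 0.20, SE 0.28, adjusted p = 0.936; -0.18 without GFI1-KO replicate 1). UNC5C, a family member known from cerebellar migration, had a log2 fold change of -0.12 and overlapping groups. DCC, the classical netrin receptor of axons, had 0, 1, 0 and 5 counts, and UNC5D had 0, 2, 0 and 1. UNC5A was not counted in any of the 4 libraries.

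The netrin ligands were too low to test. NTN1, the founding vertebrate netrin, had 5 and 1 counts in WT against 0 and 4 in GFI1-KO. NTN3 had 0 counts in WT against 0 and 2 in GFI1-KO. NTN4, a basement membrane netrin, and NTN5 were not counted in any of the 4 libraries. Where a netrin had 0 counts, the exact 95% counting interval reached 1.55 to 1.65 CPM in the 3 deeper libraries. In GFI1-KO replicate 1 it reached 24.4 CPM.

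None of the 13 tested semaphorins passed in either direction. The 4 class 6 semaphorins are transmembrane cues that bind class A plexins. SEMA6C was at 39.7 and 44.9 CPM in WT against 66.2 and 67.2 CPM in GFI1-KO, groups that did not overlap (log2 fold change 0.66, SE 0.26, adjusted p = 0.365). SEMA6A, the class 6 member with the highest level, was at 285 and 186 CPM in WT against 384 and 253 CPM in GFI1-KO, with overlap between the groups (log2 fold change 0.35, SE 0.26, adjusted p = 0.812). SEMA6D and SEMA6B had log2 fold changes of 1.03 and -0.56, each on under 20 counts in every library.

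Among the secreted class 3 semaphorins, SEMA3G, a cue known from arterial endothelium, was at 49.6 and 46.2 CPM in WT against 99.4 and 73.9 CPM in GFI1-KO. Both GFI1-KO libraries were higher, with 15 and 166 counts, but the difference did not pass (log2 fold change 0.73, SE 0.26, adjusted p = 0.286). SEMA3F, a neuropilin-2 ligand, was the class 3 member with the highest level, at 192 and 160 CPM in WT against 79.5 and 183 CPM in GFI1-KO (log2 fold change -0.20, SE 0.27, adjusted p = 0.931). Its low value was confined to the shallow library, with 12 counts. The exact 95% counting interval there, 41.1 to 139 CPM, lay below both WT values. Without that library the log2 fold change was 0.06. SEMA3A had a log2 fold change of 0.28.

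SEMA3B, SEMA3C, SEMA3D and SEMA3E were below the count filter. SEMA3E, the ligand known for direct binding to plexin D1, had 3 and 3 counts in WT against 0 and 1 in GFI1-KO. SEMA3D had 7 and 2 counts in WT against 0 and 22 in GFI1-KO. The 0 counts in replicate 1 leave room for 24.4 CPM. The 22 counts in replicate 2 lay above both WT values. Their exact 95% counting interval, 6.14 to 14.8 CPM, still overlapped that of WT replicate 1, 1.26 to 6.44 CPM. SEMA3C had 1, 2, 0 and 4 counts, and SEMA3B had 10, 6, 0 and 4.

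Class 4 semaphorins are membrane cues that bind class B plexins and, in SEMA4D, also act on immune cells. SEMA4C was the semaphorin with the highest level, at 340 and 363 CPM in WT against 364 and 445 CPM in GFI1-KO (log2 fold change 0.24, SE 0.21, adjusted p = 0.859). SEMA4D was at 18.3 and 21.0 CPM in WT against 6.62 and 12 CPM in GFI1-KO, the former on 1 count (log2 fold change -0.78, SE 0.42, adjusted p = 0.637). SEMA4B, SEMA4F and SEMA4G ran from -0.44 to 0.11. SEMA4G shares 22.3% of its exon length with MRPL43 on the other strand, and how reads in that stretch were counted is not known here. SEMA4A, with 4, 0, 0 and 6 counts, was not tested.

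SEMA7A, the membrane-anchored class 7 semaphorin, was at 71.9 and 55.4 CPM in WT against 59.6 and 70.8 CPM in GFI1-KO (log2 fold change 0.11, SE 0.26, adjusted p = 0.970). The class 5 semaphorins were near 0, with SEMA5A at 5, 3, 0 and 4 counts and SEMA5B at 2, 3, 2 and 9.

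All 9 plexins were tested and 0 passed. PLXND1, the endothelial plexin, was at 1386 and 1682 CPM in WT against 1828 and 2063 CPM in GFI1-KO. Its groups did not overlap, but the difference did not pass (log2 fold change 0.35, SE 0.22, adjusted p = 0.730). Of the class A plexins, which pair with neuropilins, PLXNA2 was at 78.6 and 42.0 CPM in WT against 53.0 and 135 CPM in GFI1-KO. GFI1-KO replicate 1, on 8 counts, fell between the WT values (log2 fold change 0.92, SE 0.33, adjusted p = 0.293). With GFI1-KO replicate 2 alone, and the spread from WT only, PLXNA2 was under the threshold (1.16, adjusted p = 0.000905). Without GFI1-KO replicate 2 its value turned to -0.17. PLXNA3 was at 33.0 and 35.2 CPM in WT against 33.1 and 55.2 CPM in GFI1-KO (log2 fold change 0.58, SE 0.29, adjusted p = 0.581). PLXNA1 had a log2 fold change of 0.30. PLXNA4 was at 11.6 and 23.9 CPM in WT against 0 and 9.79 CPM in GFI1-KO (log2 fold change -1.01, SE 0.53, adjusted p = 0.607).

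PLXNC1, the receptor for SEMA7A, had the lowest value of the tested members. It was at 51.4 and 19.3 CPM in WT against 19.9 and 13.4 CPM in GFI1-KO, so WT replicate 1 was high and WT replicate 2 lay with the GFI1-KO libraries (log2 fold change -1.32, SE 0.49, adjusted p = 0.312). With GFI1-KO replicate 2 alone, and the spread from WT only, it was under the threshold (-1.39, adjusted p = 0.011), while without WT replicate 1 the value was -0.40 (adjusted p = 1.00). The class B plexins PLXNB1, PLXNB2 and PLXNB3, receptors of class 4 semaphorins, ran from 0.01 to 0.34. PLXNB3 shares 20.4% of its exon length with SRPK3 on the same strand.

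Levels of different genes were compared per length, as CPM per kilobase of exon. PLXND1 led at 158 ± 21.5 in WT and 200 ± 17.0 in GFI1-KO (SD, n = 2 each on this scale), followed by SEMA4C at 57.0 ± 2.61 and 65.7 ± 9.23. UNC5B at 37.2 ± 10 and SEMA3F at 36.5 ± 4.71 in WT did not differ beyond their spread. ROBO1 came next at 31.6 ± 2.21 in WT, between the UNC5B values of 44.3 and 30.1 in the WT libraries. In GFI1-KO, ROBO1 held place 3 at 50.8 ± 7.23 and UNC5B place 4 at 47.0 ± 19.9. SEMA6A, PLXNB2 and PLXNA1 formed a further group without a gap, at 21.5, 20.5 and 20.2 in WT. SEMA7A at 16.7 and UNC5C at 10 completed the highest 10 in WT, and 9 of these were among the highest 10 in GFI1-KO. Of 45 adjacent pairs in the WT order, 9 had WT ranges that did not overlap, so most of the order below the leading genes is not resolved.

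**Figure D3:**
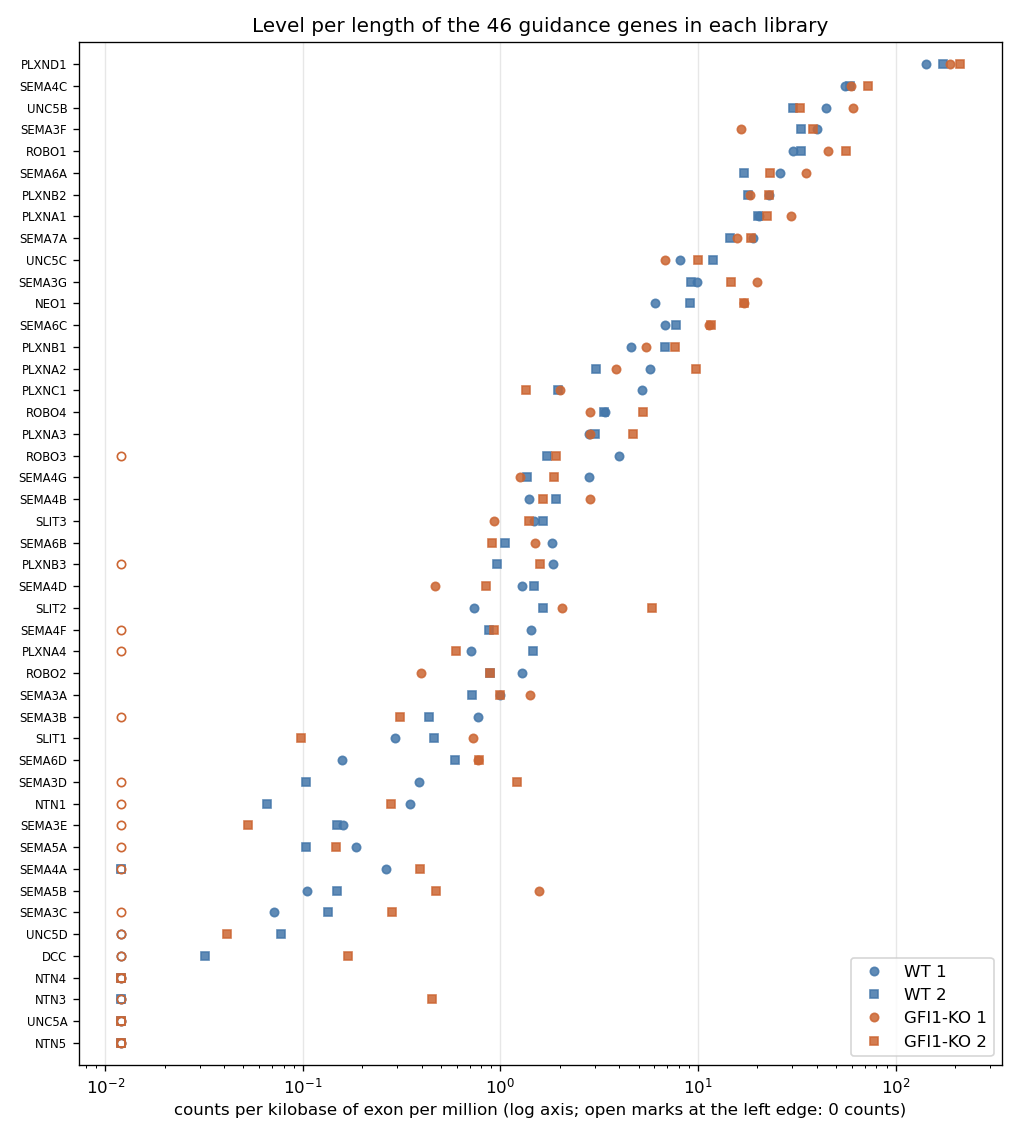
CPM per kilobase of exon (x axis, log scale) of the 46 guidance genes in each library, ordered by the WT mean, with open marks at the left edge for 0 counts. PLXND1 leads in all 4 libraries, and NTN4, NTN5 and UNC5A have open marks in all 4.

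NEO1 stood at 7.58 ± 2.15 in WT and 17.1 ± 0.0981 in GFI1-KO on this per-length scale, places 12 and 11 in the order. The small GFI1-KO SD understates the counting error of replicate 1. SLIT2 moved from place 26 in WT, at 1.19 ± 0.641, to place 17 in GFI1-KO, at 3.93 ± 2.67, so it remained far below ROBO1 per length in both genotypes. ROBO4 was at 3.35 in WT and 4.04 in GFI1-KO, below ROBO1 in each library. Of the 46 members, 29 had a WT mean of at least 1 on this scale and 25 a GFI1-KO mean of at least 1.

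Partner genes of the same pathways held 3 further changes among intracellular transducers. The list of 69 partners holds co-receptors, other ligands and modulators, and transducers with shedding proteases. The test covered 53, of which 2 rose and 1 fell, leaving 50 that missed the threshold, against 0.773% and 0.185% of all tested genes; the partners' median log2 fold change was 0.06. SRGAP1, a Slit-Robo GTPase-activating protein that acts downstream of Robo receptors, had 82 and 127 counts in WT against 25 and 250 in GFI1-KO. It was at 36.6 and 53.3 CPM in WT against 166 and 111 CPM in GFI1-KO, with no overlap, and rose (log2 fold change 1.48, SE 0.28, edgeR adjusted p = 0.0177). The SRGAP1 call was kept without either GFI1-KO library and with DESeq2 (adjusted p = 0.0499), and was lost without WT replicate 1 (1.29, adjusted p = 0.201).

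CRMP1, a collapsin response mediator that acts downstream of class 3 semaphorins, was at 70.6 and 89.8 CPM in WT against 139 and 194 CPM in GFI1-KO. It rose (log2 fold change 1.14, SE 0.25, adjusted p = 0.0409), a call lost with DESeq2 (adjusted p = 0.286), without either WT library (0.559 and 0.0839) and without GFI1-KO replicate 2 (0.339). MICAL2, of the MICAL family of actin-oxidising enzymes linked to plexin signalling, had 299 and 525 counts in WT against 6 and 147 in GFI1-KO. At 134 and 220 CPM in WT against 39.7 and 65.4 CPM in GFI1-KO it fell (log2 fold change -1.55, SE 0.30, adjusted p = 0.0207). The MICAL2 call was kept with DESeq2 (adjusted p = 0.0455) and lost without WT replicate 2 (-1.17, adjusted p = 0.213).

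The neuropilin co-receptors did not pass. NRP1, co-receptor for class 3 semaphorins and VEGF, was at 321 and 356 CPM in WT against 450 and 529 CPM in GFI1-KO, groups that did not overlap (log2 fold change 0.56, SE 0.21, adjusted p = 0.335). NRP2 was at 1517 and 1589 CPM in WT against 1067 and 1748 CPM in GFI1-KO (log2 fold change -0.11, SE 0.24, adjusted p = 0.966). RGMB, a repulsive guidance molecule that binds neogenin, was at 15.2 and 10.1 CPM in WT against 13.2 and 36.5 CPM in GFI1-KO (log2 fold change 1.36, SE 0.40, adjusted p = 0.15). On 2 counts, GFI1-KO replicate 1 fell inside the WT range; with GFI1-KO replicate 2 alone, and the spread from WT only, RGMB was under the threshold (1.53, adjusted p = 0.00198), and 40.2% of its exon length is shared with the antisense gene AC008522.1.

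The calls among the members rested on the choice of test and on single libraries. SLIT2 and NEO1 both passed with limma-voom, with RLE scaling, without a low-count filter and without WT replicate 2. Both were lost with the newer edgeR dispersion (adjusted p = 0.0536 and 0.0787) and with upper-quartile scaling (0.0511 and 0.0721), with SLIT2 just beyond the threshold in each.

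**Figure D4:**
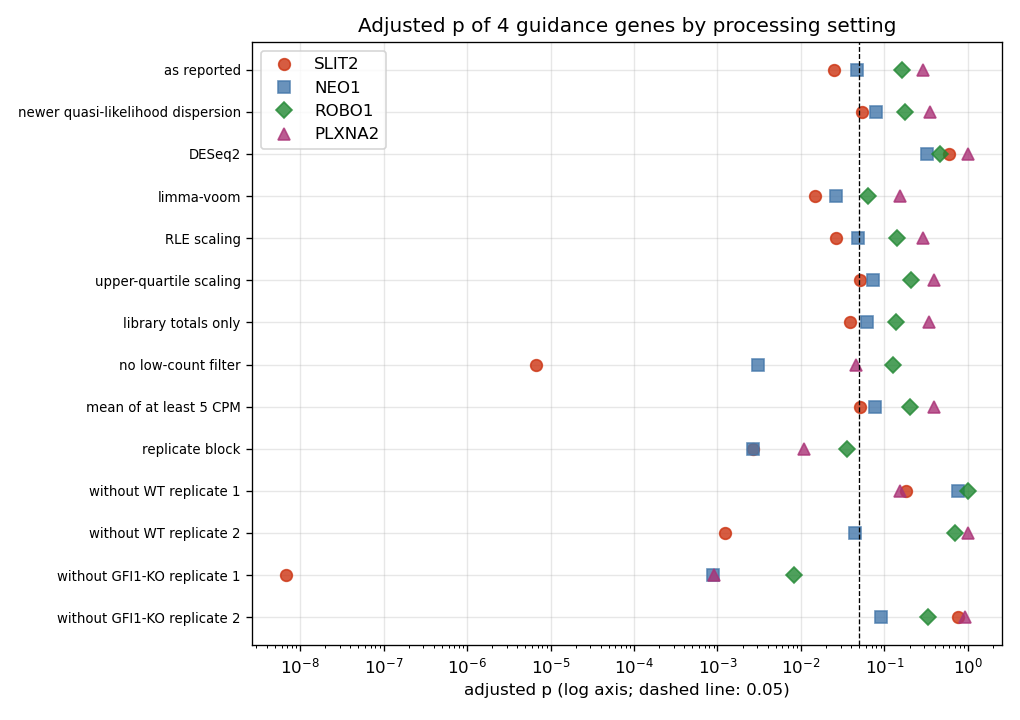
Adjusted p (x axis, log scale, dashed line at 0.05) of SLIT2, NEO1, ROBO1 and PLXNA2 under each processing setting (y axis). SLIT2 runs from 6.87e-09 without GFI1-KO replicate 1 to 0.767 without GFI1-KO replicate 2.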

How the data were processed

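Values in the deposited file are unnormalised whole-number read counts for each gene in each library. The submitters' processing notes name DESeq (1.18.1), HTSeq (0.6.0), SAMtools (1.3.1) and HISAT2 (2.0.4), with hg38 and GRCh38 as builds; the role of each, the annotation version, read filters and strand setting are unknown here. Symbols, coordinates and exon lengths came from GENCODE release 29 (19902 of 19912 identifiers matched). Testing used R 4.3.3 and edgeR 4.0.16, after filterByExpr (minimum count 10, minimum total 15), TMM scaling, glmQLFit in its legacy form (prior count 0.125) and glmQLFTest, with genotype as the term and Benjamini-Hochberg adjustment over 11380 genes. An SE was derived from the unshrunken fold change and the F statistic. Counting intervals are exact at 95% and, like the floor of 3 counts, cover counting error only. The procedure was run on simulated data with a fixed spread shared by all genes. That run does not give its error rate at the spread of these libraries. Alternatives were DESeq2 1.42.0, limma-voom (limma 3.58.1), the newer dispersion, other scalings and filters, a replicate block, leaving out each library, and thinning the deeper libraries to 146584 counts (10 draws).

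The members, the partner and marker lists and the rule for named genes were chosen with earlier results of these data known. That rule took each called member, the 12 tested members with the smallest p, the highest member per length of each family, each called partner, the 4 partners with the smallest p, and NRP1 and NRP2. The remaining tested members are given by their fold change or range only, and the untested ones by their counts. Under the alternatives they were fitted where they passed the filter, but they are not listed gene by gene.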

Additional observations from a re-analysis of the deposited data

How the results depend on the processing

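The number of guidance genes called higher, 2 as reported, was 0 with the newer dispersion, DESeq2, upper-quartile scaling, a mean of at least 5 CPM and thinning of the deeper libraries, 1 with library totals only, and 0 to 4 when a library was left out. The number called lower, 0 as reported, was 0 to 1 when a library was left out. The partner calls, 3 as reported, became 0 with the newer dispersion and with thinning, 1 with a mean of at least 5 CPM, 5 without a low-count filter, and 1 to 5 when a library was left out. Of all genes, 109 as reported, 58 were called with the newer dispersion, 33 with DESeq2, 58 with upper-quartile scaling, 72 with library totals only, 305 without a low-count filter, 50 with a mean of at least 5 CPM, 1.5 as the median of 10 thinned draws, and 62 to 373 when a library was left out. Thinning left fewer genes to test and 10 to 12 members; otherwise the cause was not tested. The members' median log2 fold change of 0.20 ran from -0.06 to 0.32 when a library was left out. GFI1 kept its direction, with -1.58 under DESeq2 (adjusted p = 0.443) and -1.57 to -1.54 when a library was left out (adjusted p = 0.000209 to 0.271). Each such fit has 1 library in a group, assumed to vary like the other group. Leaving out a library turned the sign of PLXNA2 (-0.17 to 1.37), PLXNA3 (-0.04 to 0.69), ROBO4 (-0.24 to 0.65), UNC5B (-0.18 to 0.72), SEMA3F (-1.14 to 0.06), SEMA7A (-0.08 to 0.29) and NRP2 (-0.53 to 0.17), as log2 fold changes.

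With the replicate number as a block, 4 members were called higher (SLIT2, NEO1, PLXNA2 and ROBO1), 5 partners and 327 of all genes. Nothing in the labels ties equal numbers to a common culture, so the libraries were not treated as pairs. The deviations of same-numbered libraries correlated at 0.192 over 7995 genes. With so few libraries, and GFI1-KO replicate 1 shallow, this value cannot decide whether they were paired. Of the highest 10 members per length, all 10 stayed so with coding length or with the longest transcript. The shallow GFI1-KO replicate 1 limits what can be seen: 15 of the 31 tested members had at most 3 counts in it, and 17 of the 46 had 0.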
